A study of Homo sapiens with 12 samples.

Results

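The genes described here are targets of the transcription factor ATF4 together with enzymes and transporters that supply amino acids, chosen as a list of 40 names. Of these, 39 were measured by a probe set that carries their symbol alone, among 19775 genes measured in the same way, and GPT2 is not analysed here. Each gene was read from its probe set with the highest mean over all arrays. The cells were OCI-Ly7, an established human line of diffuse large B-cell lymphoma, grown as 1 line without any genetic change described in the labels. They received vehicle, ibrutinib at 1 μM, ibrutinib at 10 μM or PLS-123 at 1 μM for 24 hours, and RNA of 3 samples per group (A, B and C) was hybridized to 12 Affymetrix arrays. Ibrutinib and PLS-123 are covalent inhibitors of Btk, a kinase of the B-cell receptor pathway. The labels do not say that the 3 samples came from separate cultures, so p values measure the spread between these samples, which may be technical.

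ATF4 is the effector of the integrated stress response. When amino acids run short or the endoplasmic reticulum is stressed, phosphorylation of the initiation factor eIF2 slows general protein synthesis while translation of the ATF4 message is favoured. The protein then pairs with C/EBP family members on a composite element, and it switches on genes that take up amino acids, make serine, proline and asparagine, and feed folate-bound carbon units and cysteine into growth. Rapidly dividing lymphoma cells use these supplies, and mTORC1 signaling also raises ATF4 output. ATF4 is regulated to a large degree in translation, so its mRNA level is no measure of its protein, which was not measured here.

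The composite element is shown first because it is the DNA sequence through which ATF4 is known to act on such genes. It was searched as TGATGNAA on both strands in promoters of RefSeq (GRCh38.p14), each 250 bases before to 50 bases after an annotated start. Of the 40 genes, 33 had a promoter in that table, and 13 of them (39.4%) held the element, against 1217 of 27305 genes (4.46%) and 1270 of 35116 promoters (3.62%). Among members with a promoter it was found in 9 of 17 that fell with PLS-123 (52.9%), in 0 of 3 that rose and in 4 of 13 that passed the test in neither direction (30.8%). The 9 were CEBPG, CHAC1, ASNS, GOT1, BCAT1, SLC3A2, SLC7A1, SLC1A4 and SLC1A5. SLC7A11, ATF5 and DDIT3, which fell deeply, were not among the genes with a match. Of the 19 members that fell 17 had a promoter to search, and sequence outside the stated window was not searched. The absence of a match therefore does not show that a gene lacks the element. The members were chosen as ATF4 targets and amino acid supply genes. A share above that of all genes therefore follows in part from the choice and says nothing about these arrays. A match describes these letters only, and binding was not measured. The following 6 stretches, written 5′ to 3′ on the strand of the gene with the element in capitals, come from genes that fell with PLS-123 and whose element lies fully upstream of the start. They are CHAC1 at chr15:40953242-40953289 (+ strand), ASNS at chr7:97872449-97872496 (- strand), CEBPG at chr19:33374051-33374098 (+ strand), GOT1 at chr10:99430795-99430842 (- strand), BCAT1 at chr12:24949122-24949169 (- strand) and SLC1A5 at chr19:46784884-46784931 (- strand).
CHAC1: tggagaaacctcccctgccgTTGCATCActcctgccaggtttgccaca
ASNS: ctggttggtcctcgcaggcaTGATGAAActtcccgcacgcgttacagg
CEBPG: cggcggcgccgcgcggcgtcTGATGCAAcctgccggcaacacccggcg
GOT1: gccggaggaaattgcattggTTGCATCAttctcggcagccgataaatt
BCAT1: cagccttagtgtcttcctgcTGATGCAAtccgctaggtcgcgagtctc
SLC1A5: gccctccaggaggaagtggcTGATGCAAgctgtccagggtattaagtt
The capitals read TGATGCAA in CEBPG, BCAT1 and SLC1A5, TGATGAAA in ASNS, and TTGCATCA, the same element on the opposite strand, in CHAC1 and GOT1.

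The arrays were normalized by the authors with RMA and deposited as linear intensities, and log2 of these is used throughout. A log2 difference of -1 therefore means that the intensity was halved. Intensities are compared within a probe set and never between genes, and they are relative to all transcripts of an array. In such bulk RNA, fewer cells that make a transcript and less of it per cell cannot be told apart. A gene is said to have risen or fallen when limma, fitted to all 12 arrays, gave an adjusted p under 0.05 (Benjamini-Hochberg over 54613 probe sets). Of the 39 members 5 were dim, meaning that their mean over the arrays was below 3.87, the median of all probe sets, and these were VLDLR, STC2, MTHFD1L, ALDH1L2 and SLC6A9. None of these passed a test.

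The B-cell label was checked with markers. MS4A1, CD79A, CD79B, PAX5, BCL6 and MME were all well above the dim limit, whereas 5 of 6 T and NK cell markers, 4 of 6 myeloid markers and 5 of 7 stromal and epithelial markers were dim. The summed linear intensity of the B-cell markers was 14510 to 15200 with vehicle, 14700 to 15480 at 1 μM ibrutinib, 12000 to 12190 at 10 μM ibrutinib and 11640 to 12210 with PLS-123. These markers did not move as one. The group means of MS4A1 (12.38 with vehicle and 11.76 with PLS-123), BCL6 (11.77 and 10.31), PAX5 (10.69 and 10.31) and CD79A (10.48 and 10.19) went down. Those of MME (9.13 and 10.82) and CD79B (11.18 and 11.49) went up. The T and NK sum was 53.6 to 56.5 with vehicle, 50.5 to 54.8 and 50.6 to 55.2 with the lower and higher dose of ibrutinib and 55.3 to 63.4 with PLS-123, and the stromal and epithelial sum 153.5 to 165.2, 144.6 to 171.2, 129.7 to 170.6 and 160.2 to 204.2, while the myeloid sum lay between 52.6 and 60.02 throughout. The part of these shifts in the results was not tested. RNA integrity was followed by the ACTB difference, the log2 intensity of the array's 3′ ACTB control minus that of its 5′ control, which increases as transcripts are shortened. It was 2.64 ± 0.04 (SD, n = 3) with vehicle, 2.67 ± 0.18 at 1 μM ibrutinib, 2.74 ± 0.08 at 10 μM ibrutinib and 2.93 ± 0.20 with PLS-123, where array C had 3.17. All 3 arrays of PLS-123, and all 3 of 10 μM ibrutinib, lay above those of vehicle (p = 0.1 in both cases by an exact two-sided permutation test, which with 3 against 3 can give nothing smaller). The corresponding GAPDH difference was 0.31 ± 0.04 with vehicle, 0.27 ± 0.03 for the lower and 0.39 ± 0.01 for the higher dose of ibrutinib and 0.45 ± 0.01 with PLS-123, and the last 2 groups again lay above vehicle in every array (exact permutation test, p = 0.1 each). Member counts with the ACTB difference as a covariate are therefore given beside those of each comparison.

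The main question was how far each inhibitor lowered this group of genes. PLS-123 lowered 19 of the 39 members and raised 3, while 10 μM ibrutinib lowered 16 and raised 2. With 1 μM ibrutinib, the dose that matched PLS-123, no member passed the test in either direction. The deepest falls were those of SLC7A11, the cystine transporter, and CHAC1, an enzyme that degrades glutathione, which reached 5.99-fold and 5.33-fold with PLS-123. Of all measured genes, PLS-123 lowered 12.8% and raised 7.54%, against 48.7% and 7.69% of the members. Ibrutinib lowered 5.82% and raised 6.71% of all genes at 10 μM, and lowered 0% and raised 0% at 1 μM. The members were chosen with earlier results of these data known, and the part of that choice in these shares was not tested. Dim genes were less frequent among the members (34 of 39 were not dim) than among all genes (12040 of 19775). Of those not dim, PLS-123 lowered 19 of 34 members and 2382 of 12040 genes and raised 3 and 1346. Ibrutinib at 10 μM lowered 16 and 1087 of them and raised 2 and 1256. The 3 comparisons share their vehicle arrays, so the values of each gene are given side by side. ATF4, PYCR1 and SLC7A1 passed with PLS-123 and not at 10 μM ibrutinib, but PLS-123 minus 10 μM ibrutinib was -0.08 (adjusted p = 0.68), -0.27 (0.22) and -0.17 (0.30) for these, so no difference between the treatments was shown.

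**Figure D1:**
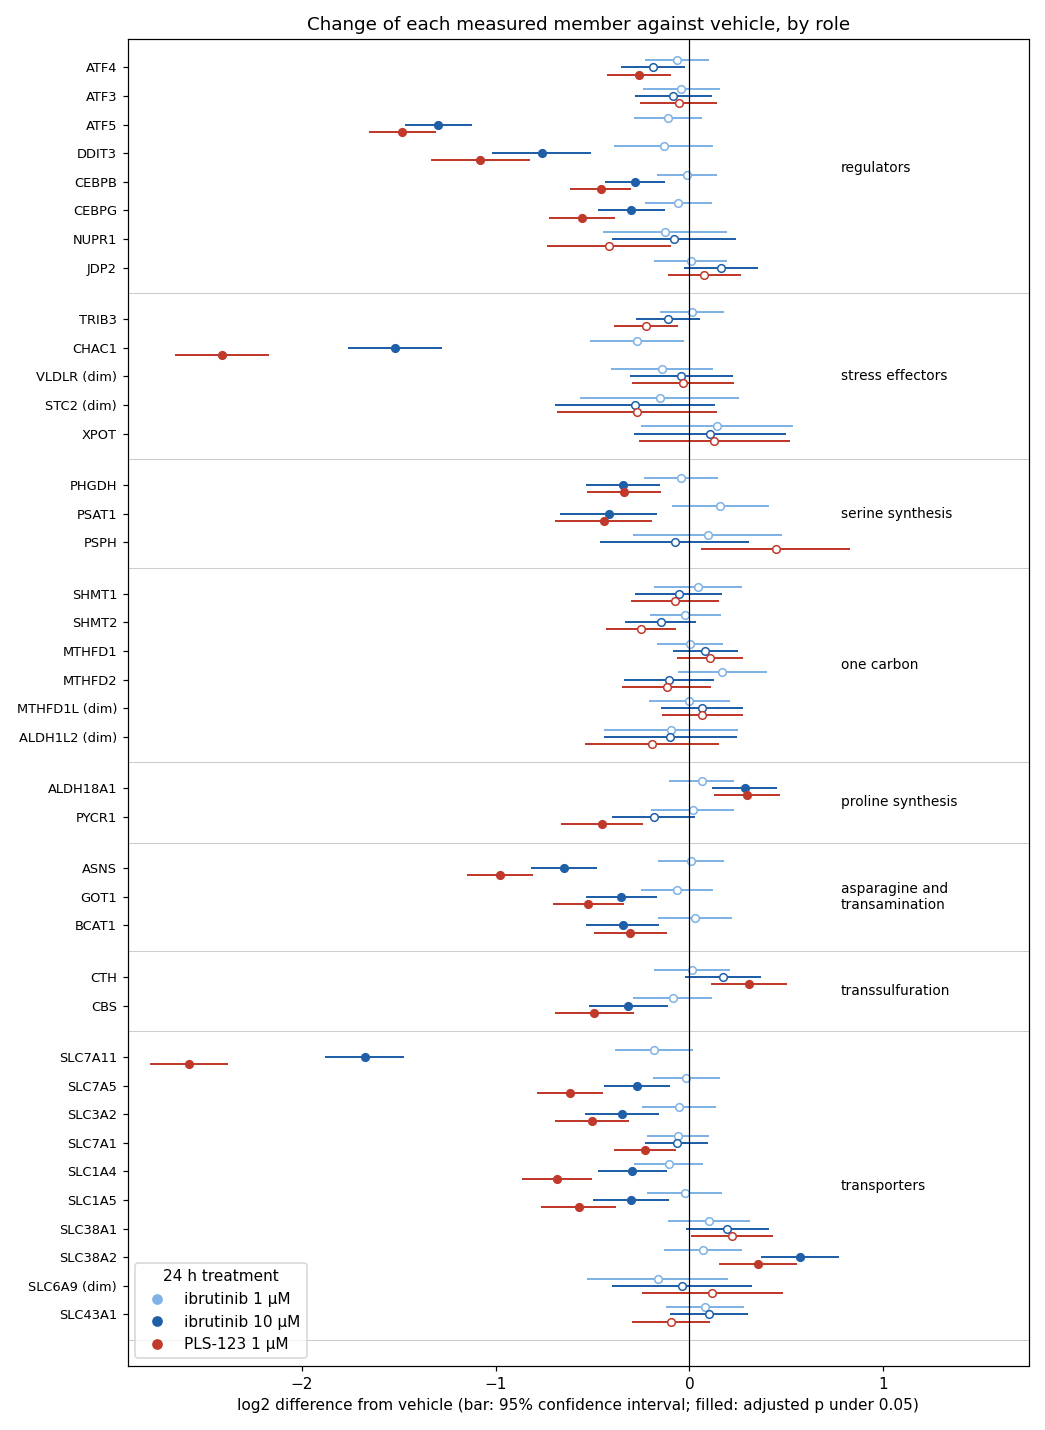
Log2 difference from vehicle of each of the 39 measured members, grouped by role, for the 3 treatments (n = 3 arrays per group). Bars are 95% confidence intervals of the limma fit, filled points passed an adjusted p under 0.05, and dim genes are marked. Points of ibrutinib at 1 μM all lie between -0.27 and 0.17, while SLC7A11, CHAC1, ATF5, DDIT3 and ASNS form the deep end for the other 2 treatments.

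The median log2 difference of the members was -0.26 with PLS-123 (-0.04 over all genes), -0.15 at 10 μM ibrutinib (-0.02) and -0.02 at 1 μM ibrutinib (-0.01). By the brightest probe sets, 7 of the 19 members that fell with PLS-123 fell by more than 1.5-fold and 4 by more than 2-fold. Most falls were therefore small by these probe sets. Over the 17 members with other probe sets that were not dim, the median difference was -0.23 by the brightest and -0.47 by the others.

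The count for PLS-123 kept to between 15 and 21 when any 1 of the 12 arrays was left out. It was 12 with the ACTB covariate, when ATF4, BCAT1, CBS, PHGDH, PYCR1, SLC3A2 and SLC7A1 no longer passed, and the 3 rises were then 0. Those rises also depended on single arrays, with 1 left without vehicle A, vehicle B or PLS-123 A and 0 without PLS-123 C. For 10 μM ibrutinib the 16 falls became 7, 8 and 6 without vehicle A, B and C and 5 and 7 without ibrutinib 10 μM A and C, while its 2 rises became 1 in the absence of any 1 array of either group. With the ACTB covariate 12 members fell and 1 rose at 10 μM ibrutinib. SLC7A11, CHAC1, ATF5, DDIT3, ASNS, SLC1A4 and SLC7A5, 7 members in all, fell with PLS-123 under each of the 22 settings tried.

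Among the 8 transcription factors of the list, 5 fell with PLS-123, 4 fell at 10 μM ibrutinib and none rose. ATF5, a factor of the same family that the stress response induces, fell furthest. Its log2 intensity was 10.59, 10.62 and 10.62 in the vehicle arrays and 10.45, 10.52 and 10.53 at 1 μM ibrutinib. It was 9.28, 9.42 and 9.24 at 10 μM ibrutinib and 9.16, 9.05 and 9.17 with PLS-123. The arrays of vehicle and 1 μM ibrutinib thus stood together more than a log2 unit above the other 6, with no overlap. The difference from vehicle was -1.48 ± 0.08 (SE) for PLS-123 (adjusted p = 2.2e-08) and -1.30 ± 0.08 for 10 μM ibrutinib (adjusted p = 9.4e-08).

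DDIT3, also known as CHOP, is the factor that ties prolonged stress to cell death. It had 6.88, 6.91 and 7.08 with vehicle and 6.58, 6.96 and 6.93 at 1 μM ibrutinib, groups that overlap. With 10 μM ibrutinib it had 6.05, 6.26 and 6.27, and with PLS-123 5.71, 5.97 and 5.95. Both of the latter groups lay below vehicle in each array, by -0.76 ± 0.12 (adjusted p = 0.00057) and -1.08 ± 0.12 (adjusted p = 2.3e-05). DDIT3 is a death-promoting gene, and it fell here along with the supply genes.

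CEBPG, a dimer partner of ATF4 at the composite element, had 9.06, 9.04 and 9.04 with vehicle and 8.94, 8.995 and 9.04 at 1 μM ibrutinib. The values were 8.67, 8.81 and 8.75 at 10 μM ibrutinib and 8.59, 8.43 and 8.46 with PLS-123, both wholly below the other 2 groups. It fell by 0.56 with PLS-123 and by 0.30 at 10 μM ibrutinib on the log2 scale. CEBPB, another partner, fell with both (-0.46 and -0.28). ATF4 itself moved little, from 12.35 ± 0.05 (SD, n = 3) with vehicle to 12.28 ± 0.04 at 1 μM ibrutinib, 12.16 ± 0.05 at 10 μM ibrutinib and 12.09 ± 0.05 with PLS-123. Its difference of -0.26 ± 0.07 with PLS-123 passed (adjusted p = 0.028), and that of -0.19 ± 0.07 at 10 μM ibrutinib did not (0.16). With the ACTB covariate the ATF4 value for PLS-123 was -0.21 (adjusted p = 0.281), and it also missed the threshold without vehicle B or C and without PLS-123 B or C. In all its call was lost in 8 of the 22 settings. The stress-induced regulators NUPR1 (-0.42, adjusted p = 0.069) and ATF3 (-0.06) and the AP-1 repressor JDP2 (0.08) did not pass with PLS-123.

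Where PLS-123 lowered 12.8% of all genes, CHAC1 was the only stress effector of the 5 that passed by its brightest probe set. It degrades glutathione inside the cell and is among the genes most readily induced by ATF4. Its values of 8.32, 8.45 and 8.31 with vehicle and 7.84, 8.20 and 8.23 at 1 μM ibrutinib did not overlap, yet the difference of -0.27 ± 0.11 missed the threshold by far (adjusted p = 0.92). With 10 μM ibrutinib it had 6.68, 6.87 and 6.98, and with PLS-123 5.98, 5.96 and 5.91. The 4 groups were therefore fully ordered, array by array, from vehicle down to PLS-123. The fall was 5.33-fold with PLS-123 (-2.42 ± 0.11, adjusted p = 5.5e-09) and 2.87-fold at 10 μM ibrutinib (-1.52 ± 0.11, adjusted p = 5.8e-07). TRIB3, a pseudokinase that feeds back on ATF4, had -0.23 with PLS-123 (adjusted p = 0.054) and -0.11 at 10 μM ibrutinib. XPOT, which exports tRNA from the nucleus, had 0.13 and 0.11 by its brightest probe set, but another that was not dim fell with PLS-123. VLDLR and STC2 were dim.

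**Figure D2:**
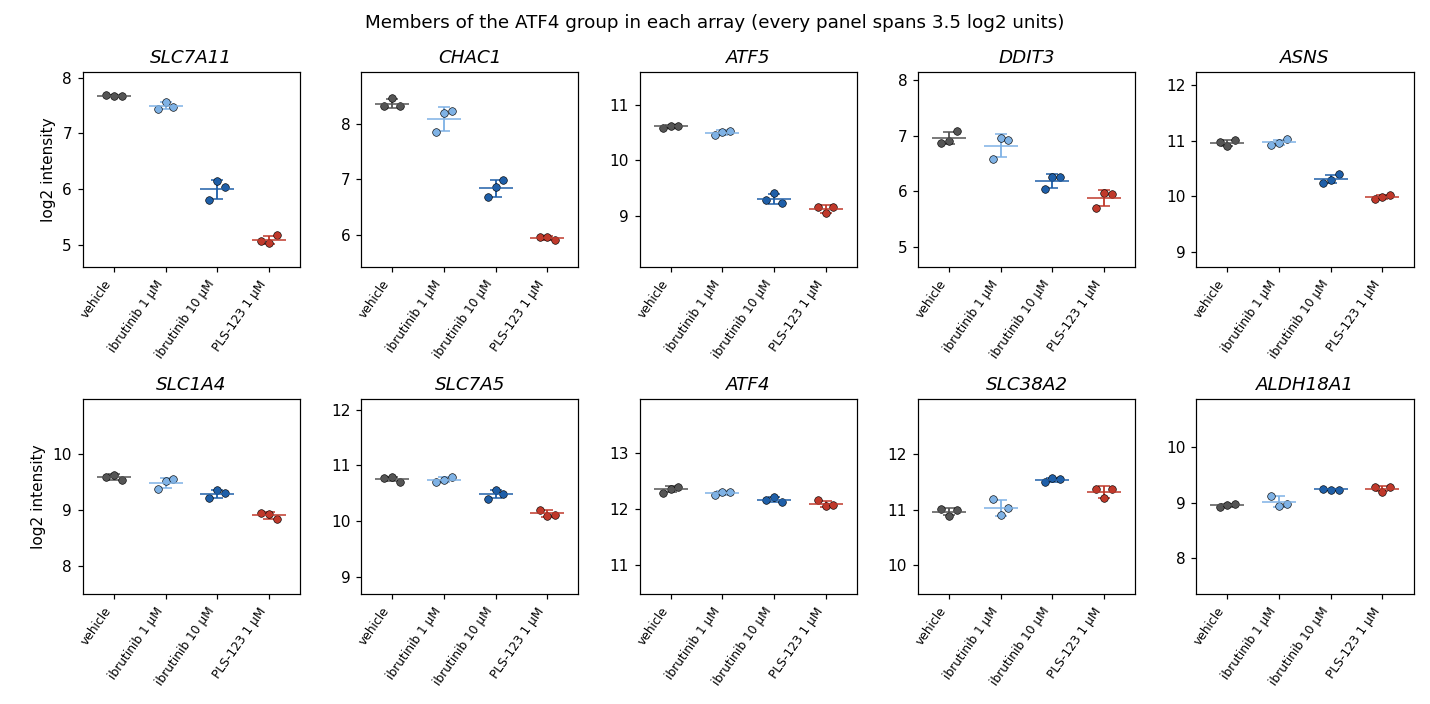
Log2 intensity in each of the 12 arrays (points, in the order A, B, C) for 10 members, with the mean and SD of each group of 3. Each panel spans the same height in log2 units on an axis of its own. SLC7A11 and CHAC1 step down from 1 μM ibrutinib to 10 μM ibrutinib and again to PLS-123. ATF4 hardly moves, and SLC38A2 and ALDH18A1 lie higher with 10 μM ibrutinib and PLS-123.

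Transporters formed the largest role, with 10 genes. PLS-123 lowered 6 and raised 1 of these, beside 12.8% and 7.54% of all genes. At 10 μM ibrutinib 5 fell and 1 rose, beside 5.82% and 6.71% of all genes. SLC7A11 imports cystine in exchange for glutamate and so supplies cysteine for glutathione. It was at 7.68, 7.67 and 7.67 with vehicle and at 7.45, 7.56 and 7.47 at 1 μM ibrutinib. The level was 5.81, 6.15 and 6.04 at 10 μM ibrutinib and 5.08, 5.03 and 5.17 with PLS-123. As for CHAC1, no 2 groups overlapped. The difference of 1 μM ibrutinib from vehicle, -0.18 ± 0.09, did not pass (adjusted p = 0.92). That of 10 μM ibrutinib was -1.68 ± 0.09 (adjusted p = 3.4e-08) and that of PLS-123 was -2.58 ± 0.09 (adjusted p = 5.3e-10). A second probe set for SLC7A11 that was not dim gave -1.12 and -2.01, and both of these passed.

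SLC1A4 and SLC7A5 were the next largest falls among the transporters with PLS-123. SLC1A4, which carries alanine, serine, cysteine and threonine, had 9.60, 9.64 and 9.53 with vehicle, 9.38, 9.52 and 9.55 at 1 μM ibrutinib, 9.22, 9.37 and 9.30 at 10 μM ibrutinib and 8.95, 8.93 and 8.84 with PLS-123. SLC7A5, the light chain of the leucine transporter LAT1, had 10.78, 10.79 and 10.71 with vehicle, 10.70, 10.74 and 10.79 at 1 μM ibrutinib, 10.41, 10.56 and 10.49 at 10 μM ibrutinib and 10.21, 10.10 and 10.11 with PLS-123. In both genes 1 μM ibrutinib overlapped vehicle and PLS-123 lay lowest, clear of all other arrays. SLC1A4 fell by 0.69 with PLS-123 and by 0.30 at 10 μM ibrutinib, and SLC7A5 fell by 0.62 and by 0.27 (log2). The calls at 10 μM ibrutinib were lost in 10 of the 22 settings for SLC1A4 and in 14 for SLC7A5, both including the ACTB covariate. SLC3A2, the heavy chain that SLC7A5 and SLC7A11 share, fell by 0.50 and by 0.35, and the glutamine transporter SLC1A5 fell by 0.57 and by 0.30, of which the calls at 10 μM ibrutinib were lost in 6 and 13 settings. SLC7A1, which carries arginine and lysine, was at -0.23 with PLS-123 (adjusted p = 0.042) and at -0.07 at 10 μM ibrutinib (0.68). Its call with PLS-123 was lost in many of the alternatives, among them the replicate block and the ACTB covariate.

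SLC38A2, a sodium-coupled transporter of small neutral amino acids that amino acid shortage is known to induce, went the other way. It rose by 0.57 ± 0.09 at 10 μM ibrutinib (adjusted p = 0.00082) and by 0.35 ± 0.09 with PLS-123 (adjusted p = 0.016), the latter lost with the ACTB covariate (0.345). The group means were 10.97 with vehicle, 11.04 at 1 μM ibrutinib, 11.54 at 10 μM ibrutinib and 11.32 with PLS-123. Of its other 2 probe sets, 1 rose with PLS-123 (0.25) and 1 did not pass (0.17). SLC38A1, its relative, was at 0.22 with PLS-123 (adjusted p = 0.15) by its brightest probe set and at -0.53 by a dimmer one that passed. SLC43A1 (-0.09) and the dim SLC6A9 (0.12) did not pass.

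Synthesis of serine starts from a glycolytic intermediate and takes 3 enzymes, PHGDH, PSAT1 and PSPH. The first 2 fell with 10 μM ibrutinib and with PLS-123, beside 5.82% and 12.8% of all genes. At 10 μM ibrutinib the calls of PHGDH and PSAT1 were each lost in 6 of the 22 settings. With PLS-123 they were lost in 5 and 3 settings, for PHGDH including the ACTB covariate. PSAT1 had 11.40, 11.29 and 11.45 with vehicle and 11.82, 11.34 and 11.47 at 1 μM ibrutinib. It had 10.88, 11.08 and 10.93 at 10 μM ibrutinib and 10.998, 10.86 and 10.95 with PLS-123, so that the last 2 groups overlapped each other and lay below the rest. The differences from vehicle were -0.42 ± 0.11 (adjusted p = 0.032) and -0.44 ± 0.11 (0.016).

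PHGDH, the committed step, had 10.10, 10.06 and 10.04 with vehicle and 9.86, 10.11 and 10.10 at 1 μM ibrutinib. With 10 μM ibrutinib it had 9.69, 9.68 and 9.81, and with PLS-123 9.67, 9.78 and 9.74. Arrays of 10 μM ibrutinib and PLS-123 again overlapped each other, at -0.34 ± 0.09 each from vehicle, and array A of 1 μM ibrutinib stood between them and the rest. PSPH had 0.45 ± 0.18 with PLS-123, which did not pass (adjusted p = 0.11). Its other 2 probe sets were at -0.03 and 0.01.

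One-carbon metabolism passes single carbons from serine to folate for nucleotide synthesis. By the brightest probe sets 0 of its 6 genes passed in any comparison (limma). For PLS-123 against vehicle 1 had an unadjusted p under 0.05, and for 10 μM ibrutinib 0 did. A count of 0 in 6 genes cannot be told from the 12.8% of all genes that fell and 7.54% that rose with PLS-123. SHMT2, the mitochondrial enzyme that takes the carbon from serine, had -0.25 ± 0.08 with PLS-123 (adjusted p = 0.053), and MTHFD2, the next mitochondrial step, had -0.12 ± 0.10 (0.51). SHMT1 (-0.08) and MTHFD1 (0.11), which act in the cytosol, did not pass either, and MTHFD1L and ALDH1L2 were dim. The count of 0 depends on the probe set that is read, and the other probe sets of SHMT2 and MTHFD2 are described with those of the remaining members.

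Proline synthesis was split between its 2 genes. PYCR1, the last step, fell with PLS-123, with 7.65, 7.49 and 7.58 in vehicle, 7.51, 7.67 and 7.59 at 1 μM ibrutinib, 7.44, 7.40 and 7.34 at 10 μM ibrutinib and 7.17, 7.28 and 6.92 with PLS-123 (-0.45 ± 0.10, adjusted p = 0.0054). ALDH18A1, the first step, had 8.93, 8.96 and 8.97 with vehicle, 9.12, 8.94 and 8.98 at 1 μM ibrutinib, 9.25, 9.23 and 9.23 at 10 μM ibrutinib and 9.27, 9.20 and 9.28 with PLS-123. Its rise was 0.30 ± 0.08 for PLS-123 and 0.28 ± 0.08 for 10 μM ibrutinib (adjusted p = 0.016 and 0.029). With the ACTB covariate neither gene passed for PLS-123 (PYCR1 -0.27, adjusted p = 0.196, and ALDH18A1 0.22, adjusted p = 0.258), and a second probe set for ALDH18A1 was at -0.20 without passing.

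All 3 measured enzymes of asparagine synthesis and transamination fell with 10 μM ibrutinib and with PLS-123, beside 5.82% and 12.8% of all genes. ASNS, asparagine synthetase and a standard reporter of ATF4 activity, had 10.97, 10.90 and 11.02 with vehicle and 10.93, 10.96 and 11.02 at 1 μM ibrutinib, which could not be separated. The values were 10.24, 10.30 and 10.40 at 10 μM ibrutinib and 9.94, 9.99 and 10.02 with PLS-123, without overlap. ASNS fell 1.97-fold with PLS-123 (-0.98 ± 0.08, adjusted p = 1e-06) and 1.57-fold at 10 μM ibrutinib (-0.65 ± 0.08, adjusted p = 6e-05). Its composite element, TGATGAAA, is among those printed above.

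GOT1, the cytosolic aspartate aminotransferase, was at 8.61, 8.71 and 8.62 with vehicle, 8.47, 8.68 and 8.59 at 1 μM ibrutinib, 8.26, 8.30 and 8.32 at 10 μM ibrutinib and 8.22, 8.12 and 8.03 with PLS-123. BCAT1, the cytosolic aminotransferase of branched-chain amino acids, was at 11.49, 11.32 and 11.45 with vehicle, 11.55, 11.34 and 11.45 at 1 μM ibrutinib, 11.07, 11.14 and 11.01 at 10 μM ibrutinib and 11.18, 11.10 and 11.07 with PLS-123. For GOT1 the order was vehicle, 10 μM ibrutinib, PLS-123 in every array (-0.35 and -0.52), whereas for BCAT1 the latter 2 groups overlapped (-0.34 and -0.30).

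The 2 enzymes of transsulfuration, which turns homocysteine into cysteine, parted as well. CBS, the first, fell from 8.28, 8.25 and 8.24 with vehicle to 7.92, 7.95 and 7.94 at 10 μM ibrutinib and 7.92, 7.76 and 7.61 with PLS-123, with 8.02, 8.23 and 8.24 for 1 μM ibrutinib. CTH, the second, was at 3.95, 3.89 and 4.17 with vehicle, 3.94, 4.01 and 4.11 at 1 μM ibrutinib, 4.19, 4.22 and 4.12 at 10 μM ibrutinib and 4.34, 4.32 and 4.27 with PLS-123. CBS was -0.49 ± 0.09 with PLS-123 (adjusted p = 0.0022, and 0.0987 with the ACTB covariate) and -0.32 ± 0.09 at 10 μM ibrutinib (0.046, a call lost in 12 of the 22 settings). CTH was 0.30 ± 0.09 higher with PLS-123 (adjusted p = 0.03), a call made just above the dim limit and lost without vehicle A or B or without any 1 of the PLS-123 arrays.

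Several members are read by more than 1 probe set, and there the size of a change depended on which was read. Over 17 members with 31 other probe sets that were not dim, 23 of these gave the same call as the brightest for PLS-123 against vehicle and 0 gave the opposite one. In 3 the call of the brightest was missing, and 5 were called where the brightest was not. The median difference was -0.23 over the brightest and -0.47 over the other probe sets, and 21 of the 31 lay lower than the brightest of their gene.

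**Figure D3:**
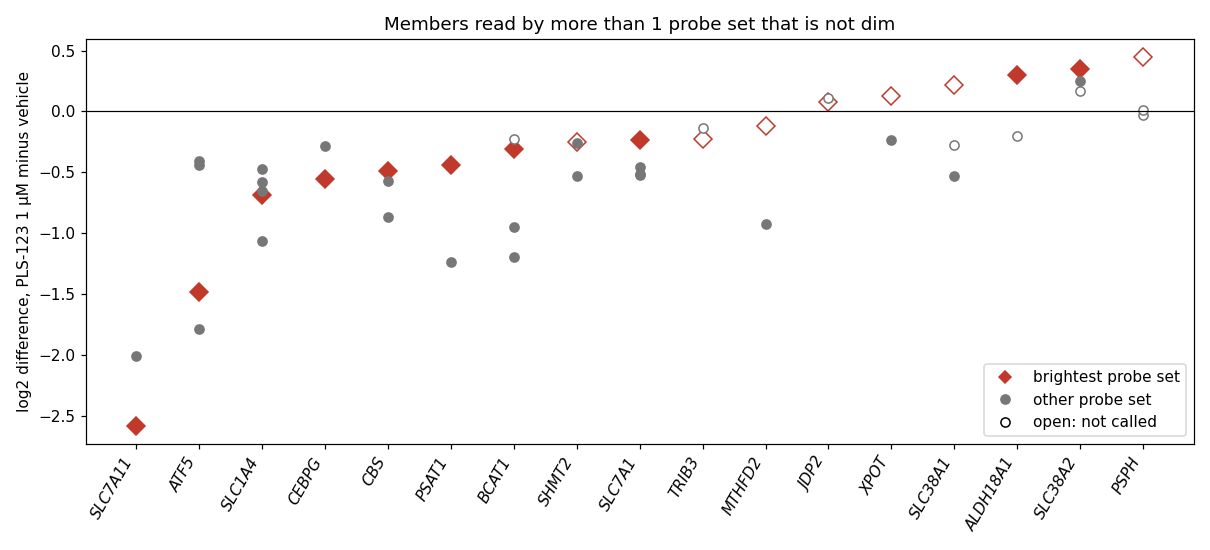
Log2 difference of PLS-123 from vehicle for the 17 members with more than 1 probe set that is not dim. Diamonds mark the brightest probe set, which carries the main results, circles the others, and open symbols did not pass an adjusted p of 0.05. The circles of PSAT1 (-1.23) and MTHFD2 (-0.93) and 2 of the circles of BCAT1 (-0.95 and -1.19) lie well under their diamonds.

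In MTHFD2 the call itself depended on the probe set. Its brightest probe set, with a mean log2 intensity of 11.2, gave -0.12, and another, with a mean of 5.71, gave -0.93 with PLS-123 (adjusted p = 1.1e-05) and -0.77 at 10 μM ibrutinib (7.1e-05). PSAT1 had -0.44 by the brightest and -1.23 by the other (means of 11.2 and 8.08). BCAT1 had -0.30 and -0.22 by its 2 brightest and -0.95 and -1.19 by 2 dimmer ones, and SHMT2 had -0.26 and -0.53 by its others, both of which passed. MTHFD2, SHMT2, SLC38A1 and XPOT were the 4 members that fell only by a probe set other than the brightest. Why the probe sets of a gene differ was not tested.

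PLS-123 was next compared with 1 μM ibrutinib, its match in dose. Here 17 of the 39 members were lower and 1 higher with PLS-123, when 10.1% of all genes were lower and 5.78% higher. SLC7A11 differed by -2.40 (95% interval -2.60 to -2.20), CHAC1 by -2.14 (-2.38 to -1.91), ATF5 by -1.37 (-1.54 to -1.21), ASNS by -0.98 (-1.15 to -0.82) and DDIT3 by -0.95 (-1.20 to -0.69). ATF4 (-0.19, adjusted p = 0.12) and SLC7A1 (-0.18, 0.15) did not pass. This comparison shares its PLS-123 arrays with the one against vehicle. The member that was higher was CTH (0.29, adjusted p = 0.048), and it lost this call in 17 of the 22 settings. PHGDH, among the lower ones (-0.29, adjusted p = 0.041), also lost its call in 17 settings. With the ACTB covariate, which was 0.27 higher with PLS-123 (exact permutation test, p = 0.3), 11 members were lower and 0 higher.

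With 1 μM ibrutinib alone nothing passed, neither in the members nor, at 0% lower and 0% higher, in any of the 19775 genes by limma. The smallest adjusted p over the members was 0.917, only CHAC1 had an unadjusted p under 0.05, and the methods' t-test with Benjamini-Hochberg adjustment called 0. The ACTB covariate left 0 members lower and 0 higher. The intervals bound what could have been missed: -0.51 to -0.03 for CHAC1, -0.38 to 0.01 for SLC7A11, -0.28 to 0.06 for ATF5 and -0.16 to 0.17 for ASNS.

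Last, PLS-123 at 1 μM was set beside ibrutinib at 10 μM, doses that differ, so that the comparison says which group of arrays was lower and not how the compounds compare dose for dose. SLC7A11 and CHAC1 were lower with PLS-123, and no member was higher, where 0.142% of all genes were lower and 0.0708% higher. The remaining 37 members did not pass. The difference was -0.91 ± 0.09 for SLC7A11 (1.87-fold, adjusted p = 0.0043) and -0.90 ± 0.11 for CHAC1 (1.86-fold, adjusted p = 0.0069). By the second SLC7A11 probe set it was -0.89 (adjusted p = 0.014). With the ACTB covariate SLC7A11 still passed (-0.93, adjusted p = 0.0333) and CHAC1 did not (-0.81, 0.0641). Without ibrutinib 10 μM B the count was 1, since CHAC1 no longer passed. Neither gene passed by the methods' t-test after Benjamini-Hochberg adjustment (SLC7A11 0.177 and CHAC1 0.164) or by limma on these 2 groups alone (adjusted p = 0.0735 for both).

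**Figure D4:**
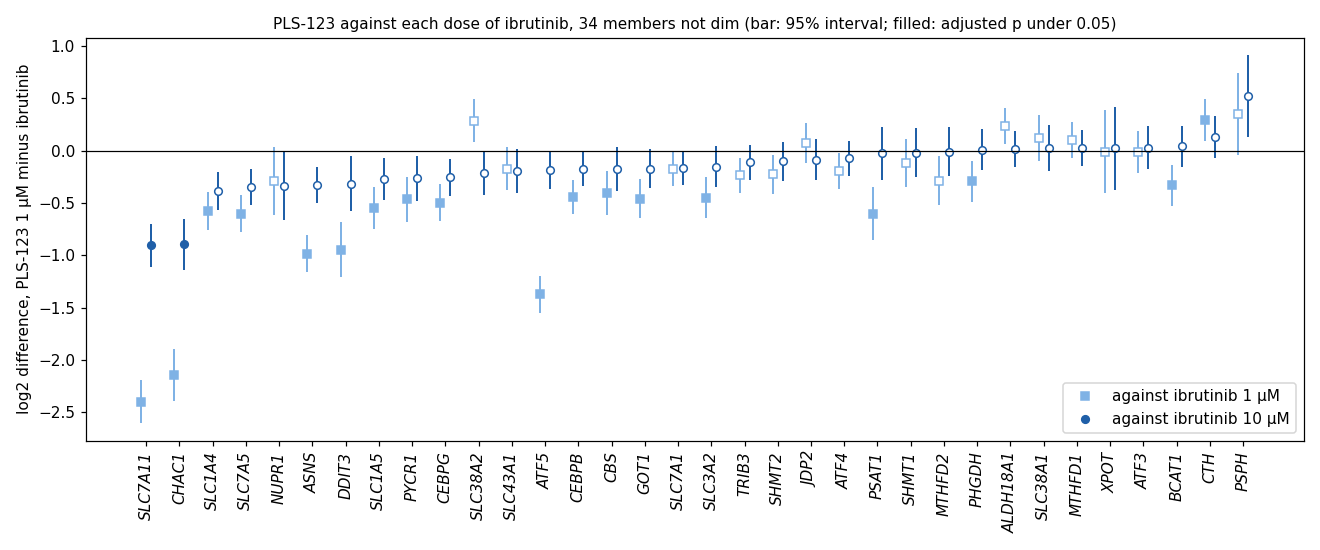
Log2 difference of PLS-123 at 1 μM from each dose of ibrutinib for the 34 members that were not dim, in order of the difference from 10 μM ibrutinib. Bars are 95% confidence intervals, and filled symbols passed an adjusted p under 0.05. Against 1 μM ibrutinib 17 members are lower and filled, and against 10 μM ibrutinib SLC7A11 and CHAC1 alone are.

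Below those 2, the differences from 10 μM ibrutinib came close to the threshold for SLC1A4 (-0.39, 95% interval -0.56 to -0.22, adjusted p = 0.071), SLC7A5 (-0.35, -0.51 to -0.18, 0.079) and ASNS (-0.33, -0.49 to -0.16, 0.093). In 16 of the 39 members all PLS-123 arrays lay below all arrays of 10 μM ibrutinib and in 2 all lay above, which over all genes was the case for 18.2% and 6.97%. The 16 include ATF5, DDIT3, CEBPB, CEBPG, GOT1, CBS, SLC1A5 and also SLC38A2, which was above vehicle in both. For PHGDH (-0.18 to 0.19), PSAT1 (-0.27 to 0.22), BCAT1 (-0.14 to 0.22) and ALDH18A1 (-0.15 to 0.18) the interval included 0. That leaves room for differences of up to these bounds and does not show that the treatments acted alike.

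Other genes of the same pathways were counted from lists of 93 names, 86 of them measured. These lists, too, were written with earlier results of these data known. With PLS-123 against vehicle 18 fell and 6 rose (20.9% and 6.98%, beside the 12.8% and 7.54% of all genes). Among the 12040 genes that were not dim 2382 fell and 1346 rose. The lists were not limited to genes that were not dim, so their shares cannot be set against these. At 10 μM ibrutinib 14 of the 86 fell and 7 rose, beside 5.82% and 6.71% of all genes, and at 1 μM ibrutinib none did either. Against 1 μM ibrutinib 17 were lower with PLS-123 and 6 higher, beside 10.1% and 5.78% of all genes. Against 10 μM ibrutinib 0 passed (limma, 15 at an unadjusted p under 0.05). Their median difference with PLS-123 was -0.03.

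Where 12.8% of all genes fell and 7.54% rose with PLS-123, 4 of 10 other known ATF4 targets fell and none rose. They were SESN2, a leucine sensor that restrains mTORC1 (-1.35 with PLS-123 and -1.01 at 10 μM ibrutinib), PCK2, the mitochondrial PEP carboxykinase (-1.02 and -0.45), DDIT4, an inhibitor of mTORC1 (-0.98 and -0.57), and EIF4EBP1, a repressor of cap-dependent translation (-0.49 and -0.37). SESN2, DDIT4 and EIF4EBP1 act as brakes on mTORC1 or on its output, and they fell in the same arrays as the supply genes.

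Upstream, 6 of 14 eIF2 kinases, subunits and regulators fell with PLS-123, beside 12.8% of all genes. EIF2B3 (-0.64) and EIF2B2 (-0.59) are subunits of the exchange factor that recharges eIF2, and PPP1R15A, or GADD34, directs the phosphatase that removes the stress phosphate (-0.80). With 10 μM ibrutinib these 3 had -0.42, -0.41 and -0.62, and 4 of the 14 fell and 1 rose, beside 5.82% and 6.71% of all genes. The remaining 8 did not pass with PLS-123.

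Of 22 further amino acid transporters, 2 were lower and 4 higher with PLS-123, beside 12.8% and 7.54% of all genes, so that the lower ones were no more frequent than in the whole array. SLC7A7, which exports arginine and lysine across the plasma membrane, fell (-0.90), as did SLC25A12, a mitochondrial aspartate-glutamate carrier (-0.66). SLC7A6 (0.53), the ornithine carrier SLC25A15 (0.58), SLC43A2 (0.49) and the lysosomal SLC38A9 (0.33) rose. Among 17 further amino acid enzymes 3 fell, ODC1 of polyamine synthesis (-0.47), ARG2 (-0.55) and BCAT2 (-0.43), and MPST rose (0.43).

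Of 15 other folate and glycine genes, AHCY (-0.33) and MTRR (-0.33), both of the methionine cycle, fell and FPGS, which retains folate in the cell, rose (0.44). In the glutathione list of 8 genes GSS, glutathione synthetase, fell (-0.52) and none rose. The share of genes that fell in these last 2 lists was close to the 12.8% of all genes. With 10 μM ibrutinib the counts lower and higher were 4 and 0 for ATF4 targets, 2 and 3 for transporters, 1 and 1 for enzymes, 2 and 1 for folate and glycine genes and 1 and 1 for glutathione genes. Of all genes 5.82% were lower and 6.71% higher there. SLC25A15, SLC43A2, SLC38A9, BCAT2 and EIF4EBP1 are named in addition to the naming rule, after their values were seen.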

How the data were processed

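RNA of 12 OCI-Ly7 samples (4 groups of 3, 24 hours) was hybridized to Affymetrix U133 Plus 2.0 arrays. The authors normalized the arrays by RMA, per the labels, and deposited linear intensity values (2.09 to 15751, array medians 14.2 to 14.8). The RMA version is not given in the sources used here. The design assumed log2 values, so log2 of the deposited intensity was taken first. Of 54675 probe sets 62 controls were left out and 54613 tested. Gene symbols came from the platform annotation (41091 probe sets with 1 symbol, 1801 with several, 11721 with none), and a gene was read from its brightest single-symbol probe set. The number of arrays limits the precision.

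limma 3.58.1 (R 4.3.3) was fitted with 1 mean per group and eBayes, which leaves 8 residual degrees of freedom. Tests were two-sided with Benjamini-Hochberg adjustment, and ± after a difference is its standard error. The procedure was tested on simulated data. The members and gene lists were chosen with earlier results of these data known. All members could be named. Values in every array are given for up to 3 members per role with the largest change in PLS-123 against vehicle, and up to 3 genes per further list were named by smallest p. The other lists were eIF2 kinases and regulators, other ATF4 targets, folate and glycine genes, transporters, amino acid enzymes, glutathione genes and cell type markers. Alternatives were the methods' t-test, 2 groups alone, an intensity trend, the replicate block, quantile normalization, centring on normalization controls, no dim probe sets, the mean over probe sets, the study's fold threshold, the ACTB covariate and each array left out.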

Additional observations from a re-analysis of the deposited data

How the results depend on the processing

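Over 4265 single-gene values recomputed, 239 lost and 61 gained their call. A reversed sign was counted only for genes called in the main fit, and there were 0. Values that were not called could change sign, as for SLC38A1 with PLS-123 against vehicle (-0.212 to 0.285 over the settings). The counts that moved by over 1.5 times are given with the cause not tested unless the setting itself removes arrays or adds a fold limit. With the study's threshold, a fold change of 1.5 with an unadjusted p under 0.05, 7 members were lower with PLS-123 and 5 at 10 μM ibrutinib, 7 were lower in PLS-123 against 1 μM ibrutinib, and those higher were 0 in each of these. With the ACTB covariate the lower members were 12 (PLS-123 against vehicle), 11 (against 1 μM ibrutinib) and 1 (against 10 μM ibrutinib), and the higher ones 0, 0 and, for 10 μM ibrutinib against vehicle, 1. The methods' t-test gave 8 lower and 0 higher members against 1 μM ibrutinib, 0 lower against 10 μM ibrutinib, and 1 higher with PLS-123 against vehicle. Fitting 2 groups alone gave 0 lower against 10 μM ibrutinib and 0 higher against 1 μM ibrutinib. For PLS-123 against 10 μM ibrutinib the 2 lower members became 7 with an intensity trend, 5 without dim probe sets and 4 with the mean over probe sets, each of these including SLC7A11 and CHAC1. The 1 higher member against 1 μM ibrutinib, CTH, was replaced by 2 others with an intensity trend. It was kept among 3 each with quantile normalization, centring on controls and without dim probe sets. With the mean over probe sets 1 other member was higher in its place, and the 3 higher with PLS-123 against vehicle became 1.

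With arrays left out in turn, the lower members ranged from 15 to 21 (PLS-123 against vehicle), 5 to 16 (10 μM ibrutinib against vehicle), 14 to 17 (PLS-123 against 1 μM ibrutinib) and 1 to 2 (against 10 μM ibrutinib), and the higher ones from 0 to 3, 1 to 2, 0 to 2 and 0 to 0 in the same order. Whether the letters A, B and C pair the arrays is not stated in the labels, and the main fit used no pairing. Residual correlations of arrays with the same letter ran from -0.255 to 0.224, with 5 of 18 over 0.1. Arrays with different letters were not compared, so these values cannot decide it. With the replicate block 18 members were lower and 3 higher with PLS-123 against vehicle, 16 lower and 0 higher against 1 μM ibrutinib, and 2 lower against 10 μM ibrutinib. SLC7A11 lost its call against 10 μM ibrutinib under the methods' t-test and with 2 groups alone (highest adjusted p 0.177), and CHAC1 in 4 settings (0.164). ATF4 lost its call with PLS-123 in 8 of 22 settings.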
